A study of Homo sapiens with 9 samples.

Results

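AHSG, ASGR1 and ASGR2, 3 genes best known from the hepatocyte, were measured in 2 human intestinal epithelial cell lines, T84 and Caco-2. The members were all probe sets whose RefSeq identifier mapped to 1 of the 3 symbols. The rule found 3 probe sets, 1 per gene, among 1259 probe sets and 927 named genes of a glycosylation-oriented array. The genes were picked because earlier results of these data showed them high in Caco-2, so their difference between the lines is a description and carries no test. Standard errors, intervals and ranks given for that difference describe these arrays, make no allowance for the choice and are not evidence for the difference. The contrast within T84 was not used for that choice and was tested.

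The study's question was which glycosylation genes change when interferon gamma raises an epitope on sialylated CD44v6 in T84; Caco-2 lacks that epitope. Treated T84 cells were exposed for 24 hours to 100 U/ml of interferon gamma, an inflammatory cytokine made by lymphocytes (3 arrays). Untreated T84 cells were at passage 68 and untreated Caco-2 cells at passage 37, both about 90% confluent in 6-well plates (3 arrays each). For the treated cells, the sources used here give neither passage nor confluence. No allele or transgene is named for either line, and the groups used here hold no interferon-treated Caco-2 cells. T84 and Caco-2 both come from human colon carcinoma, so each stands for 1 tumour-derived line and not for intestinal epithelium in general. Line, passage and culture cannot be told apart in this design. The replicates are numbered without a statement that they came from separate cultures, so p-values measure the spread between these arrays, which may be technical. The values are log2 signals normalized by RMA, so a difference of 1 is 2-fold, and the number of arrays limits the precision.

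AHSG encodes fetuin-A, a sialylated glycoprotein that the liver secretes into plasma, where it binds calcium phosphate and slows mineral deposition. ASGR1 and ASGR2 encode the subunits of the asialoglycoprotein receptor, a C-type lectin of the hepatocyte surface. It binds terminal galactose or N-acetylgalactosamine on glycoproteins that have lost their sialic acid and takes them up through clathrin-coated pits. Fetuin stripped of sialic acid is a classical ligand of this receptor, so the set holds a cargo glycoprotein and both chains of a receptor for its desialylated form. ASGR1 supplies the major chain and ASGR2 the minor chain, and both genes lie on chromosome 17.

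The 250 bases before the start of AHSG are shown because AHSG had the largest difference of the 3 between the lines. The sequence is from RefSeq (GRCh38.p14, chr3:186612810-186613059, plus strand), and the table gave this window for 1 of the 3 genes. Capitals mark matches to letters of liver-associated factor motifs.
AHSG: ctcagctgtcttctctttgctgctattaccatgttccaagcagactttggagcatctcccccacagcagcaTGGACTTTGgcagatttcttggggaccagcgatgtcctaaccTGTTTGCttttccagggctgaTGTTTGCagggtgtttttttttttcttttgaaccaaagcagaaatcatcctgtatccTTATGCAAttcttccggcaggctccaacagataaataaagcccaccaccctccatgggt
The motifs were searched on both strands in all 35116 windows of this length, and no match overlapped another here. The HNF4 letters CAAAGTCCA were matched on the opposite strand, starting 179 bases before the gene's start, and 0.325% of all windows held them. The FOXA letters TGTTTNC were matched 137 and 116 bases before the start (15.5% of windows), and the C/EBP letters TTNNGCAA 59 bases before it (9.05%). No match was found for the HNF1 half-site GTTAAT (6.23% of windows), the intestinal CDX2 letters TTTATNG (8.93%) or the interferon-related GAS letters TTCNNNGAA (6.57%). The motifs were in part chosen with this sequence in view, so the shares are not chance rates for these matches. Matches describe the letters only, and binding was not measured.

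AHSG stood far apart between the lines. In Caco-2 its log2 signal was 12.05, 11.75 and 11.99 on replicates 1, 2 and 3. In untreated T84 it was 6.98, 6.85 and 6.91, and in treated T84 it was 6.91, 6.91 and 6.93. All 3 Caco-2 arrays were high, all 6 T84 arrays were low, and 4.78 log2 units separated the highest T84 array from the lowest Caco-2 array. The group means were 11.93 ± 0.16 in Caco-2, 6.91 ± 0.06 in untreated T84 and 6.92 ± 0.0086 in treated T84 (SD, n = 3 each). Untreated T84 thus lay 5.02 ± 0.08 log2 units (SE) below Caco-2, and the Caco-2 signal was 32.4 times as large (95% confidence interval 28.7 to 36.6). Ordered by size of the fall from Caco-2 to untreated T84, AHSG was the third of 1259 probe sets.

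ASGR2, the minor receptor chain, likewise stood higher in Caco-2 than in either T84 group. Its log2 signal in Caco-2 was 9.60, 9.38 and 9.30 on replicates 1 to 3, against 5.82, 5.78 and 5.87 in untreated T84 and 5.84, 5.81 and 5.65 in treated T84. The lines did not overlap, with 3.43 log2 units between the nearest arrays. Means were 9.43 ± 0.15 in Caco-2, 5.83 ± 0.04 in untreated T84 and 5.77 ± 0.10 in treated T84 (SD, n = 3 each). The difference of untreated T84 from Caco-2 was -3.60 ± 0.08 log2 units (SE), a signal 12.1 times as large in Caco-2 (10.6 to 13.8). By size of that fall ASGR2 stood at place 10 of 1259.

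ASGR1, the major receptor chain, was also higher in Caco-2. Its Caco-2 arrays read 8.47, 8.12 and 8.26, the untreated T84 arrays 6.92, 6.78 and 6.91, and the treated T84 arrays 6.80, 6.85 and 6.88. The lines again did not overlap, and the nearest arrays were 1.20 log2 units apart. Means were 8.29 ± 0.17, 6.87 ± 0.08 and 6.84 ± 0.04 (SD, n = 3 each) in that order. Untreated T84 lay below Caco-2 by a log2 difference of -1.42 ± 0.09 (SE), a ratio of 2.67 (2.32 to 3.06) in favour of Caco-2. By size of the fall it stood at place 57 of 1259. The ratios of the 2 chains come from probe sets with their own affinities and background, were not tested against each other and do not give the proportion of the chains.

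**Figure D1:**
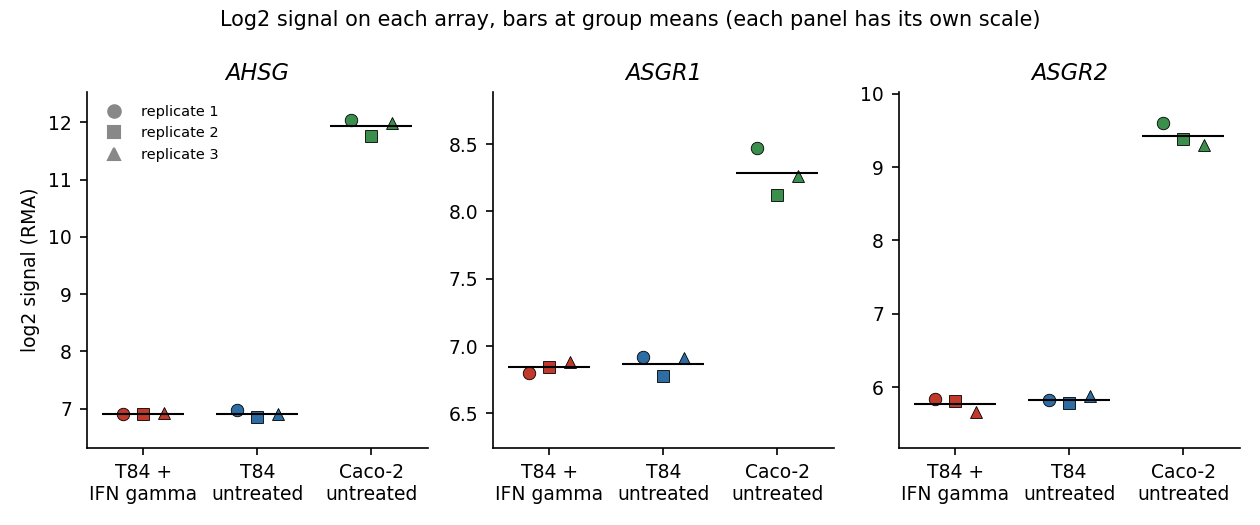
Log2 signal of AHSG, ASGR1 and ASGR2 on each of the 9 arrays (vertical axis, with its own scale in each panel) for treated T84, untreated T84 and Caco-2, with symbols for replicates and bars at group means. The Caco-2 arrays lie above every T84 array in each panel, by 4.78 log2 units for AHSG, 1.20 for ASGR1 and 3.43 for ASGR2 between the nearest arrays.

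Every T84 array was below every Caco-2 array for 3 of 3 members, where 23.7% of all 1259 probe sets showed this. Since the members were chosen on that contrast, nothing is read from the count. Measured against treated instead of untreated T84, the differences from Caco-2 were -5.01, -3.66 and -1.44 log2 units for AHSG, ASGR2 and ASGR1, with the same Caco-2 arrays in both comparisons. In bulk RNA, a smaller share of expressing cells and less RNA per cell cannot be told apart. Detection calls were not used here, so it is not known whether the T84 signals stood above background. The AHSG and ASGR1 probe sets carry the suffix for probes shared among transcripts, while the ASGR2 probe set does not.

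Replicate 1 gave the highest Caco-2 value of all 3 members, while replicate 3 was above replicate 2 for AHSG and ASGR1 and below it for ASGR2. Replicate 1 lay above the mean of replicates 2 and 3 by 0.18 log2 units for AHSG, 0.28 for ASGR1 and 0.26 for ASGR2. Over all probe sets the median of that gap was 0.08, and 29.2, 17.1 and 18.6% of probe sets had a larger one. Over all probe sets, the deviations of Caco-2 replicate 1 from its group mean correlated with those of replicate 3 in treated T84 (0.484) and in untreated T84 (0.756). Without Caco-2 replicate 1 the differences of untreated T84 from Caco-2 were -4.96 for AHSG, -3.51 for ASGR2 and -1.32 for ASGR1. The SD within Caco-2 was larger than the median of 0.104 over all probe sets for each member, and 33.6, 29.6 and 34.2% of probe sets had a larger SD than AHSG, ASGR1 and ASGR2. In treated T84 the AHSG arrays spanned 0.017 log2 units, and 95.7% of probe sets had a larger SD there.

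The contrast within T84 asked whether 24 hours of interferon gamma altered these genes. No difference was detected for any of the 3 in limma's moderated test over 1259 probe sets. AHSG had a log2 fold change of 0.0048 ± 0.08 (SE), with a 95% confidence interval of -0.17 to 0.18 and an adjusted p of 0.992 (limma, n = 3 per group). ASGR1 was at -0.03 ± 0.09 (-0.23 to 0.17, limma adjusted p = 0.946) and ASGR2 at -0.06 ± 0.08 (-0.25 to 0.13, limma adjusted p = 0.82). The count was 0 of 3 at the adjusted threshold of 0.05, which 10.2% of all probe sets passed (4.37% higher and 5.8% lower after treatment). The smallest unadjusted limma p of the 3 was 0.483. In linear terms the intervals ran from 0.888- to 1.13-fold for AHSG, 0.854- to 1.13-fold for ASGR1 and 0.839- to 1.09-fold for ASGR2. Treated and untreated arrays overlapped for each of the 3 genes, where 27.5% of all probe sets had no overlap, so the order of these 2 groups is not resolved, whereas Caco-2 stood above both. Of 1259 probe sets, 62 had a smaller change than AHSG in this contrast, while 76.6% moved further than ASGR1 and 55.4% further than ASGR2. Of 8 measured genes of an interferon gamma response list, 7 were higher in treated T84; CXCL9, CXCL10 and CXCL11, its classical chemokine targets, were 69.8-, 34.5- and 16.4-fold higher (limma adjusted p at most 5.4e-05, n = 3 per group).

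**Figure D2:**
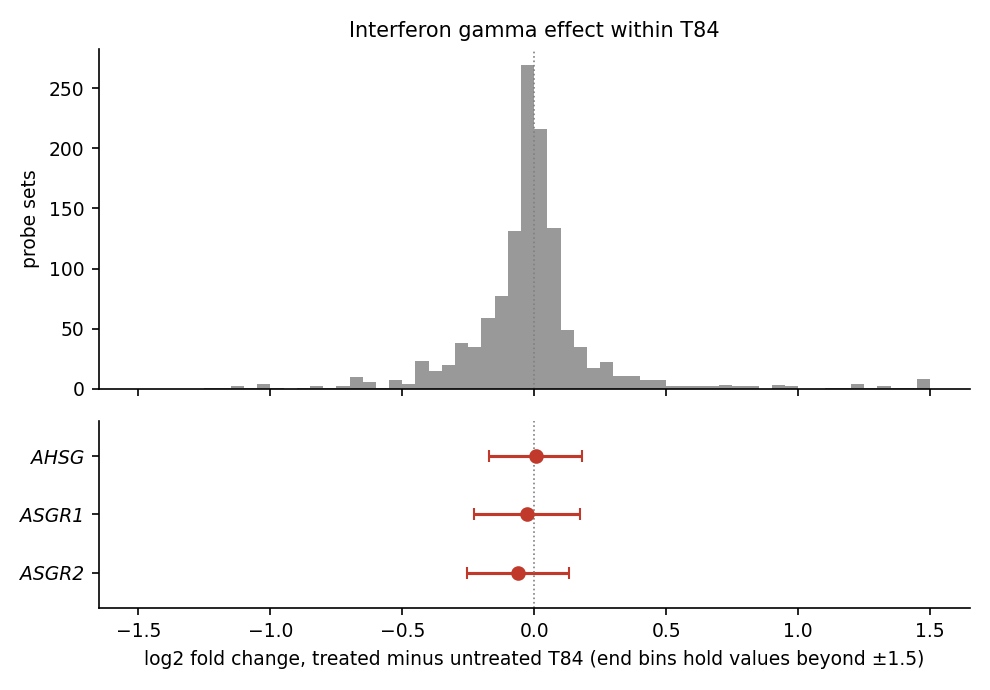
Log2 fold change of treated over untreated T84 (horizontal axis): above, the number of probe sets per bin over all 1259, with values beyond the axis gathered in the end bins, and below, AHSG, ASGR1 and ASGR2 with 95% confidence intervals. The 3 intervals include 0, and the estimates are 0.0048, -0.03 and -0.06.

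The genes with the nearest pattern over the 9 arrays were found by Pearson correlation of log2 signal among the other 926 genes. Since the arrays fall into 2 lines, the measure mostly reflects the line difference, and above 0.95 it held 105 genes for AHSG, 108 for ASGR1 and 113 for ASGR2. The members correlated at 0.999 (AHSG with ASGR2), 0.994 (AHSG with ASGR1) and 0.993 (ASGR1 with ASGR2). AHSG and ASGR2 had the same neighbours besides each other. These were IGF2, a fetal growth factor, LGALS2, a galactose-binding galectin, GPC3, a proteoglycan of fetal liver, and FGFR2, a fibroblast growth factor receptor, at 0.997 to 0.999. ASGR1 was nearest to IGFBP2, a binding protein of insulin-like growth factors (0.997), the chemokine gene CXCL14 (0.995), the small proteoglycan gene FMOD and AHSG (0.994 each) and the sialic acid-binding lectin gene SIGLEC6 (0.994). The measure ignores the size of a difference: untreated T84 differed from Caco-2 by -6.62 for IGF2, -5.63 for LGALS2, -4.96 for GPC3 and -4.90 for FGFR2, against -5.02 for AHSG and -3.60 for ASGR2.

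**Figure D3:**
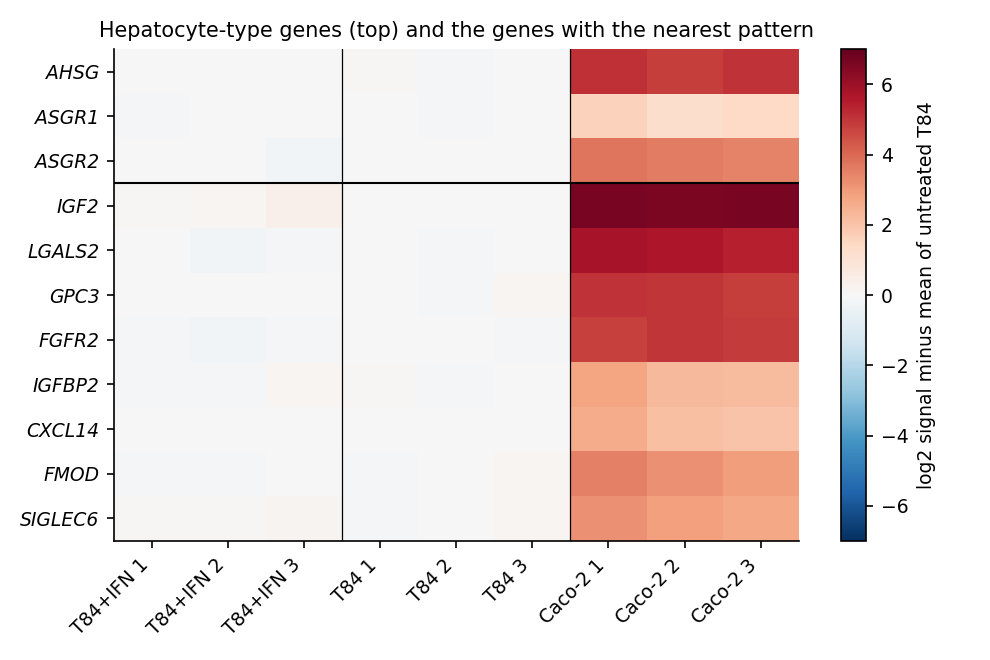
Log2 signal minus the mean of untreated T84 (colour) on the 9 arrays (columns) for AHSG, ASGR1 and ASGR2 (above the line) and their nearest genes (below it). All rows are near 0 in T84 and above 0 in Caco-2, with IGF2 the strongest and ASGR1 the weakest.

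Of a list of 57 plasma proteins, mostly glycoproteins of hepatocyte origin, AHSG and MBL2 were measured. MBL2, mannose-binding lectin, a serum lectin that starts complement activation, was at 3.87 ± 0.06 in Caco-2 and 3.45 ± 0.02 in untreated T84 (SD, n = 3), a dim signal below the 25th percentile of mean signals over the table (5.41). Its log2 difference was -0.42 ± 0.05 (SE; limma adjusted p = 0.000253, n = 3 per group). The albumin, transferrin and alpha-fetoprotein genes are on the list, but no probe set was mapped to them.

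The other C-type lectin genes, the wider family of ASGR1 and ASGR2, mostly did not pass the test between the lines. Many of them were dim in both lines, below the 25th percentile of mean signals (5.41). Examples were CLEC1B (4.09 in Caco-2 and 4.19 in untreated T84) and CD69 (3.39 and 3.46). For such dim genes the lack of a difference says little. Of 64 measured without the 2 receptor genes, untreated T84 had 4 higher and 10 lower than Caco-2 and 50 did not pass, with a median log2 difference of -0.0012. The background shares were 19.5% higher and 24.2% lower, with a median of 0.02 over the whole table (treated T84 against Caco-2: 19.4 and 26.2%). The count of 4 became 2 without treated replicate 2, without any 1 of the untreated T84 arrays or without Caco-2 replicate 3. Among those lower were OLR1, the oxidised LDL receptor (-2.64 ± 0.20 log2 units, SE), LAYN, a hyaluronan-binding membrane lectin (-1.79 ± 0.12), and ATRN, attractin (-1.15 ± 0.09). Their limma adjusted p values were at most 1.41e-05 (n = 3 per group). PLA2R1, a relative of the mannose receptor, was higher by 1.06 ± 0.09, but its other probe set, at 0.23, did not pass. CLEC10A, the macrophage galactose lectin, and CLEC4F are close relatives of the receptor, named for kinship after their values were seen. They were at 0.02 ± 0.06 and -0.12 ± 0.06, and neither passed (limma adjusted p = 0.797 and 0.145, n = 3 per group). Within T84, 0 C-type lectins were higher after interferon gamma and PLA2R1 alone was lower (-0.55 ± 0.09, limma adjusted p = 0.00709, n = 3 per group), a call that its other probe set (-0.01) did not share.

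The receptor's ligands are made and unmade by enzymes that add, cap or expose terminal galactose, and all 18 listed genes were measured. Compared with Caco-2, untreated T84 had 2 of them higher and 6 lower, 10 did not pass, and the median log2 difference was -0.12. Among all probe sets 19.5% were higher and 24.2% lower. The count of 2 became 4 without Caco-2 replicate 1. ST3GAL6, which caps galactose with sialic acid, was lower by a log2 difference of -3.17 ± 0.17 (SE). NEU1, the lysosomal sialidase that exposes galactose, was lower at -1.06 ± 0.12, on a probe set that may cross-hybridise. GLB1, the beta-galactosidase that removes galactose, was at -0.89 ± 0.09, and B4GALNT4, which adds N-acetylgalactosamine, at -1.03 ± 0.11. The limma adjusted p was at most 9.68e-05 for these 4 (n = 3 per group). Also lower were B4GALT1 (-0.37) and B4GALT5 (-0.34), which add galactose (limma adjusted p = 0.0195 and 0.0192, n = 3 per group). The genes lower in T84 thus included some that add, cap or expose galactose. The 2 genes higher in untreated T84 were ST3GAL4 (0.68) and ST6GAL1 (0.44), both capping enzymes (limma adjusted p at most 0.0043, n = 3 per group). Within T84 ST3GAL4 alone passed, being lower after interferon gamma (-0.55 ± 0.11; n = 3 per group, limma adjusted p = 0.0139). The limma adjusted p rose to 0.0543, 0.0589 and 0.0573 when treated replicate 1, treated replicate 2 and untreated T84 replicate 3 were left out in turn, and was 0.0611 with quantile normalization. Without any 1 of these 3 arrays the list's count was 0, against 2 without untreated T84 replicate 2 or Caco-2 replicate 3 and 3 without Caco-2 replicate 1.

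Growth factor and receptor genes linked to liver biology went in both directions between the lines. Of 17 measured, untreated T84 had 3 higher and 8 lower than Caco-2, and 6 did not pass, with a median of -0.10. The background shares were 19.5% higher and 24.2% lower. Lower were IGF2 (-6.62 ± 0.07 log2 units, SE), GPC3 (-4.96 ± 0.08), IGFBP3 (-3.56 ± 0.10) and IGFBP2 (-2.43 ± 0.15), each with a limma adjusted p of at most 2.65e-06 (n = 3 per group). IGFBP1, a secreted liver protein that binds insulin-like growth factors, ran against AHSG and was higher in T84 by 2.29 ± 0.18 (limma adjusted p = 1.61e-05, n = 3 per group). Within T84, IGFBP1 (-1.03 ± 0.18) and FGFR4 (-0.45 ± 0.10), a fibroblast growth factor receptor of hepatocytes, were lower after interferon gamma (limma adjusted p = 0.00858 and 0.0199, n = 3 per group). The FGFR4 call was lost without any single T84 array (adjusted p between 0.0543 and 0.0821), and the IGFBP1 call without 3 jointly deviating arrays (0.069). IGF2 and GPC3 were already known from earlier results of these data.

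**Figure D4:**
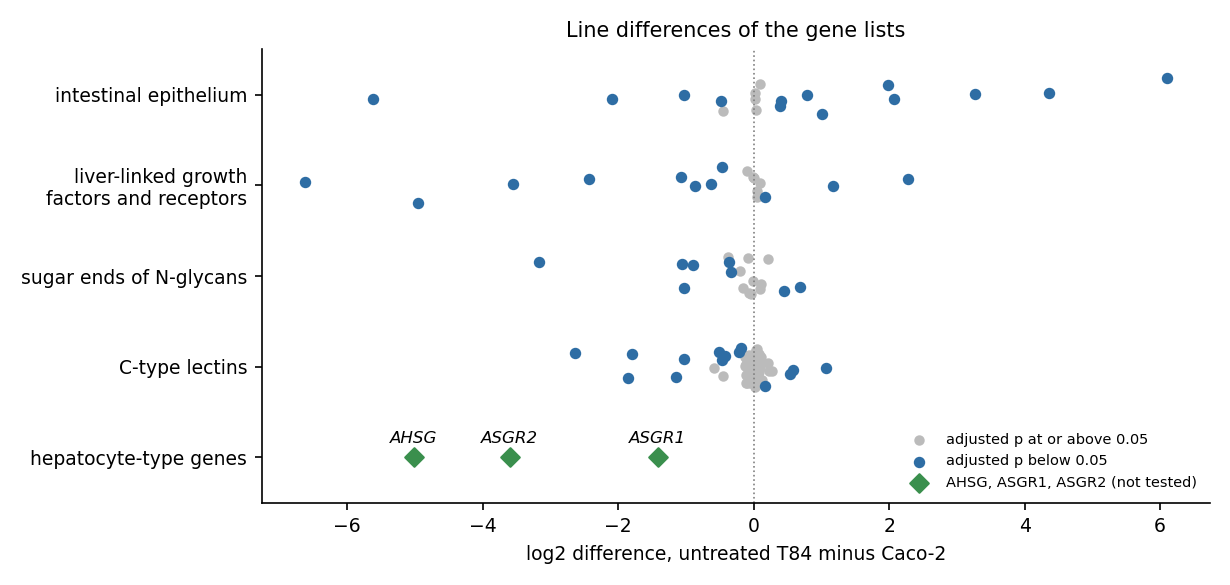
Log2 difference of untreated T84 minus Caco-2 (horizontal axis) for the genes of 4 lists, in blue where past a limma adjusted p of 0.05 and in grey where not, and for AHSG, ASGR1 and ASGR2 as green diamonds, not tested. The C-type lectins gather at 0, with 50 of 64 not past the test and many dim in both lines. The 3 hepatocyte-type genes, chosen for their difference, lie at -5.02, -1.42 and -3.60.

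A list of glucuronosyltransferase and related UGT genes had 1 of 7 higher and 1 lower in untreated T84. The list, named by its main class, included UGT8, a galactosyltransferase of the same family, which did not pass. UGT1A1, the bilirubin-conjugating enzyme, was 26.6-fold higher than in Caco-2 and, within T84, lower after interferon gamma by -1.11 ± 0.08 log2 units (SE; limma adjusted p = 3.73e-05, n = 3 per group). Its probe set carries the suffix for probes shared among transcripts, so the signal may not come from UGT1A1 alone. UGT2B17, on a probe set that may cross-hybridise, was at -0.25 ± 0.05 and passed, a call that its other probe set (0.10) did not share. Genes of intestinal epithelium had 9 of 18 higher, 4 lower and 5 not past the test. Among all probe sets 19.5% were higher and 24.2% lower, the background for each list of this paragraph. LGALS4, an intestinal galectin, was higher in untreated T84 by 6.10 log2 units, ST6GALNAC1, a mucin-type sialyltransferase, by 4.36 and the mucin gene MUC13 by 2.07, whereas LGALS2 was lower (-5.63). MUC13 was at 11.98 ± 0.07 in untreated T84 and 9.92 ± 0.12 in Caco-2 (SD, n = 3). It does not stand for the list, since LGALS4 was at 13.0 in untreated T84 and 6.9 in Caco-2, and LGALS2 at 5.2 and 10.8. Within T84 the list had 1 gene higher and 2 lower after interferon gamma, MUC13 against LGALS4 and ST6GALNAC1. Among 6 endocytic and secretory pathway lectins, some also in the lists above, untreated T84 had 3 higher and 2 lower than Caco-2. CD44, the hyaluronan receptor that carries the study's epitope, was higher by 4.68 log2 units and IGF2R, the cation-independent mannose 6-phosphate receptor, by 0.72, while CANX, calnexin of the endoplasmic reticulum, was lower (-1.31). The count of 2 became 1 without untreated T84 replicate 1 or 2 or Caco-2 replicate 1 or 2. PLA2R1 was the gene of this list lower after interferon gamma.

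Markers of other cell types moved in part with the line difference. Of 13 measured fibroblast and endothelial markers, untreated T84 had 0 higher and 6 lower than Caco-2, against 19.5% and 24.2% of all probe sets. Their mean log2 signal ran from 5.63 to 5.71 over the Caco-2 arrays, from 5.08 to 5.14 in untreated T84 and from 5.09 to 5.13 in treated T84. The log2 differences of those lower were -3.21 for FMOD, -1.63 for PDGFRA, -0.72 for LUM, -0.62 for PECAM1, -0.53 for BGN and -0.46 for PDGFRB, which are matrix proteoglycan, growth factor receptor and endothelial adhesion genes. The other 7 did not pass, among them the matrix gene DCN (3.47 in Caco-2 and 3.49 in untreated T84) and the endothelial genes SELE (3.49 and 3.52) and CD34 (6.82 and 6.81). Of 13 leukocyte markers, 2 were higher and 0 lower in untreated T84, against the same background shares. Their mean signals ran from 5.84 to 5.87 in Caco-2 and from 5.92 to 5.98 in untreated T84. Within T84, 0 genes of either list passed in limma, where 10.2% of all probe sets did. The part of these markers in the difference of AHSG, ASGR1 and ASGR2 was not tested.

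Caco-2 stood above T84 for the 3 genes under each scaling tried. With arrays centred on 51 ribosomal protein probe sets, the median log2 difference over all probe sets became 0.31 (from 0.02) in untreated T84 against Caco-2 and 0.14 (from -0.01) within T84. The calls of untreated T84 against Caco-2 then became 837 higher and 195 lower, against 245 and 305. The differences of untreated T84 from Caco-2 were then -4.73 for AHSG, -3.31 for ASGR2 and -1.12 for ASGR1. Relative to the median of all probe sets they were -5.04, -3.62 and -1.43, which centring cannot alter, since it moves every probe set of an array alike.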

How the data were processed

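Total RNA (0.5 ug) was biotin-labelled and hybridised to single-colour Affymetrix-type arrays, per the labels' protocols. The deposited values are log2 signals per probe set that the authors had made with RMA, per the submitters' processing notes; the sources used here give neither its version nor a filter. RMA equalises array distributions, which can compress differences. Values were used as deposited. A RefSeq table (GRCh38.p14) gave 1 symbol to 1043 of 1259 probe sets, and a gene with several was represented by the one with the highest mean. One group model over 9 arrays was fitted with limma 3.58.1 (R 4.3.3; 6 residual and 2.121 prior degrees of freedom), and p-values were adjusted by Benjamini-Hochberg over 1259 probe sets (threshold 0.05). The fit was tested on simulated data. All 3 members passed the filter on dim probe sets that served as an alternative. Motifs were in part chosen with the sequence in view.

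The members and lists were chosen with earlier results of these data known. Named were all members, up to 4 genes per list with the smallest adjusted p against Caco-2 and up to 2 within T84 (groups not overlapping), the 5 nearest patterns per member, and CXCL9, CXCL10 and CXCL11. CLEC10A, CLEC4F, CLEC1B, CD69, ST6GAL1, B4GALT1, B4GALT5, UGT8 and the marker genes were named outside this rule, after their values were seen. Python 3.11.15, pandas 2.3.3 and matplotlib 3.10.9 were used.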

Additional observations from a re-analysis of the deposited data

How the results depend on the processing

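One alternative was added after seeing the data: it left out treated replicate 3, untreated T84 replicate 3 and Caco-2 replicate 1, arrays seen to deviate together. The interferon effect passed in 0 of 60 fits of the 3 members (limma, lowest adjusted p 0.146). Its sign, within error of 0, turned for AHSG with median centring (-0.016), without untreated T84 replicate 2 (-0.027) and without the 3 arrays (-0.0011), for ASGR1 and ASGR2 with ribosomal protein centring (0.12 and 0.089) and for ASGR2 without the 3 arrays (0.017). With single arrays left out it ran from -0.027 to 0.038 for AHSG. The difference of untreated T84 from Caco-2 kept its sign throughout. With ribosomal centring it was -4.73, -1.12 and -3.31 for AHSG, ASGR1 and ASGR2 (treated T84: -4.57, -1.002 and -3.22), with array weights -4.90 and -1.30 for AHSG and ASGR1 (treated: -4.90 and -1.32), and without the 3 arrays -3.52 for ASGR2 in treated T84.

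Replicate numbers did not pair the arrays across all groups: same-numbered deviations correlated from -0.643 to 0.561, and 2 of 9 arrays correlated best with their own number. Between treated and untreated T84 the same-numbered values were 0.386, -0.0237 and 0.561 for replicates 1, 2 and 3. These values do not settle whether the T84 arrays were paired. With the replicate block, C-type lectins higher against Caco-2 were 2 (not 4), endocytic lectins lower 1 (not 2) and leukocyte markers higher 1 (not 2). 

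Ribosomal centring gave 289 probe sets higher within T84, 911 higher and 180 lower in treated T84 against Caco-2, and 837 and 195 in untreated T84. Within T84 it called higher 20 C-type lectins, 2 sugar-end, 5 liver-linked, 2 glucuronosyltransferase, 4 intestinal and 1 endocytic gene, 7 leukocyte and 3 fibroblast markers. Against Caco-2 it called higher 49, 8, 9 and 5 of the first 4 lists and 11 and 7 markers, and lower 0 glucuronosyltransferases and 1 endocytic lectin. Array weights gave 87 higher and 144 lower within T84 and 368 higher in treated T84 against Caco-2. They gave 2 C-type, 4 sugar-end and 3 endocytic genes lower within T84, and 8, 4, 2 and 1 C-type, sugar-end, glucuronosyltransferase and fibroblast genes higher against Caco-2. A threshold of 0.01 left 36 lower within T84, 0 sugar-end and 1 liver-linked gene lower, 0 intestinal higher, and against Caco-2 1 C-type lectin and 1 leukocyte marker higher and 1 endocytic lectin lower. Quantile normalization gave 2 C-type and 2 sugar-end genes lower within T84 (ST3GAL4 not among them, at -0.50 and a limma adjusted p of 0.0611) and, against Caco-2, 9 C-type lectins, 4 leukocyte and 1 fibroblast marker higher and 1 endocytic lectin lower. The median over probe sets left 0 C-type and 0 endocytic genes lower within T84 and 0 glucuronosyltransferases lower against Caco-2. Without dim probe sets, 6 C-type lectins and 0 glucuronosyltransferases were lower. Fitting only 2 groups gave 3 sugar-end genes lower within T84, and 1 endocytic lectin lower and 1 leukocyte marker higher against Caco-2. Without the 3 arrays 1 liver-linked gene within T84 and 1 endocytic lectin against Caco-2 were lower, and an intensity trend also left 1 endocytic lectin.

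With single arrays left out, probe sets lower within T84 ran from 40 to 108 (40, 48 and 44 without treated replicates 2 and 3 and untreated replicate 3), C-type lectins lower from 1 to 2, sugar-end genes from 0 to 3 and liver-linked genes from 1 to 2. Against Caco-2, C-type lectins higher ran from 2 to 6, sugar-end genes from 2 to 4, endocytic lectins lower from 1 to 2, leukocyte markers higher from 1 to 2 and fibroblast markers from 0 to 1. UGT2B17 turned to 0.045 with ribosomal centring and to 0.10 on its other probe set. The causes were not tested.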
